A study of Mus musculus with 6 samples.

Results

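Tsc22d3, Btg1, Trp53inp1 and Cdkn1a are stress-responsive genes tied to growth arrest, and they were followed in endothelial cells of mice exposed to environmental tobacco smoke. The 4 genes were chosen by symbol from 11138 named genes on the arrays, and 10 of the 32448 array features are their spots. They were selected on the smoke-over-control ratios of these same 6 arrays, so their ratios are given as a description, with no test. After 1 week of smoke Tsc22d3, Btg1 and Trp53inp1 had ratios near 2.3 to 2.4-fold. After 6 weeks Tsc22d3 was still at 2.27-fold, Btg1 was at 1.58-fold and Trp53inp1 was slightly below control. These values keep the deposited signs. With the sign of the dye-reversed 6-week array turned, the 6-week mean log2 ratio was 0.31 for Tsc22d3 and 0.24 for Btg1. With the dye-reversed 1-week array turned as well, the 1-week mean log2 ratio was 0.45 for Tsc22d3, 0.25 for Btg1 and 0.62 for Trp53inp1. The ratio of Cdkn1a, which encodes the CDK inhibitor p21, depended on which of 2 probe sequences was read, AK007630 or U09507. At 1 week it was 2.46-fold below control with AK007630 and near control with U09507.

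Each array compared 2 RNA samples of sorted mouse endothelium, with smoke-exposed cells in channel 1 and control cells in channel 2. The 1-week exposure has 3 arrays, and array 1 of them is a dye reversal. The 6-week exposure also has 3 arrays: array 1 used a 1-week control, array 2 is the dye reversal of that hybridisation, and array 3 used a 6-week control. The labels give no strain, genotype, age, organ, sorting marker, dose of smoke or number of animals, and the age of the control on the 1-week arrays is not given. Nothing states that the arrays of 1 exposure came from separate animals, so the spread between arrays may be technical. The 6 arrays also limit the precision of every value. Arrays 1 and 2 of the 6-week exposure are both orientations of 1 comparison, so n = 3 arrays at 6 weeks stands for 2 distinct comparisons and its SD mixes dye and sample differences.

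Values are log2 ratios as deposited, so 1 unit is a 2-fold difference and 0 is the median of an array. A positive value is read as higher after smoke, and all values keep the deposited sign of each array unless a turned array is named. That direction is likely rather than stated, because smoke is named first in every title and is channel 1 of every array, while no label names the dyes. A ratio gives no expression level, so neither the abundance of these transcripts nor the labelled cell type could be checked by level. In RNA from a cell population, more RNA per cell and more cells of a kind cannot be told apart.

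Tsc22d3 encodes GILZ, a leucine zipper protein induced by glucocorticoids that restrains NF-kappaB and AP-1 signalling. Glucocorticoids act through a nuclear receptor that binds response elements in DNA, and FoxO factors induce some of the same quiescence genes. Trp53inp1 encodes a p53-induced nuclear protein with roles in stress response and autophagy, and Cdkn1a is the classical p53 target that halts the cell cycle. Btg1 belongs to the BTG/TOB family of antiproliferative proteins, which bind the CCR4-NOT deadenylase.

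RefSeq promoter windows of assembly GRCm38.p6 were matched for 3 of the 4 genes, with 1 window for Btg1, 2 for Cdkn1a and 3 for Tsc22d3. They are shown as background to these genes, and no link between a motif and a ratio was tested. Each window holds the 250 bases before a start site, on the strand of the gene, and capitals mark motif matches found on either strand. The Btg1 window lies at chr10:96616751-96617000 on the plus strand, that of the first Cdkn1a start at chr17:29090729-29090978 on the plus strand, and that of the third Tsc22d3 start at chrX:140600523-140600772 on the minus strand.
Btg1: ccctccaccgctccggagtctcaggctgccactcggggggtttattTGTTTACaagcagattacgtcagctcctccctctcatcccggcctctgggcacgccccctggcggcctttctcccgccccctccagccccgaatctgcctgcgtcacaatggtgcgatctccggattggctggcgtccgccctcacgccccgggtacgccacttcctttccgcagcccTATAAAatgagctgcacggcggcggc
Cdkn1a: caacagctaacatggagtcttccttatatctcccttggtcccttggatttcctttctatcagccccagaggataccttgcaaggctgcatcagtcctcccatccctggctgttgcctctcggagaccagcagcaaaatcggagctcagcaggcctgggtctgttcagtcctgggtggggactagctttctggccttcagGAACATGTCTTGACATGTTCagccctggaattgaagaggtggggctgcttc
Tsc22d3: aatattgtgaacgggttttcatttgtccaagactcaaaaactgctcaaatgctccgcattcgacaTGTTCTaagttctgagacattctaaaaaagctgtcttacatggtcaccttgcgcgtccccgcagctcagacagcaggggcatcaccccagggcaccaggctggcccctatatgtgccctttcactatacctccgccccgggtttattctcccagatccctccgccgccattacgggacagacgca

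The Cdkn1a window holds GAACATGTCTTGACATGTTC, a match to the p53 consensus with at most 1 mismatch, at 51 to 32 bases before the start. Such a match is in 25 of 32851 RefSeq promoter windows of this length, or 0.0761%. It contains the paired p53 core CATGNNNNNNCATG, which is in 0.49% of windows, and neither motif was found in the window of the second Cdkn1a start at chr17:29093519-29093768. The Btg1 window holds TGTTTAC, the reverse complement of the FoxO motif GTAAACA, at 204 to 198 bases before the start, as 3.17% of all windows hold that motif. It also holds TATAAA at 26 to 21 bases before the start, a motif in 12.4% of windows. The glucocorticoid hexamer TGTTCT was found in the Tsc22d3 window shown, at 185 to 180 bases before the start, and 16.1% of windows hold it. That share is per window, and Tsc22d3 has 3 windows. Those of its first and second starts held none of the motifs searched. The full glucocorticoid element GAACANNNTGTTC is in 13 of the 32851 windows, 0.0396%, and in none of the 6 windows of these genes. These matches are letters in a window and not evidence of binding.

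With the signs as deposited, Tsc22d3 had the smallest range of the 4 genes over the 6 arrays, 0.51, but with 6-week array 2 turned its range was 2.86, the largest of the 4. On 1-week arrays 1, 2 and 3 its log2 ratio was 1.24, 1.04 and 1.56, and on 6-week arrays 1, 2 and 3 it was 1.16, 1.30 and 1.08. All 6 values were above 1, and the ranges of the 2 exposure times overlapped. The mean was 1.28 ± 0.26 at 1 week (SD, n = 3 arrays), a 2.43-fold ratio, and 1.18 ± 0.11 at 6 weeks (SD, n = 3 arrays), a 2.27-fold ratio. The 6-week mean was lower by 0.10, which is less than the spread between the 1-week arrays. Averaging the 6-week dye swap first gave 1.16 at 6 weeks. As deposited, Tsc22d3 was within the top 2.77% of named genes on every array, and its lowest value over the 6 arrays ranked 4 of 11138. The gene was chosen on these ratios, so nothing is read from that rank. With 6-week array 2 turned, its value there was -1.30, within the lowest 1.87% of that array, and its lowest value ranked 10130. Its paired spots differed by at most 0.41 on any array.

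Btg1 was also above control on every array, with a lower mean at 6 weeks. Its log2 ratio was 1.53, 0.79 and 1.49 on 1-week arrays 1, 2 and 3, and 0.97, 0.62 and 0.38 on 6-week arrays 1, 2 and 3. The lowest 1-week value, on array 2, lay below the highest 6-week value, so the times overlapped. The mean was 1.27 ± 0.41 at 1 week (SD, n = 3 arrays), a 2.41-fold ratio, and 0.66 ± 0.30 at 6 weeks (SD, n = 3 arrays), a 1.58-fold ratio. Averaging the 6-week dye swap first gave 0.59 at 6 weeks. The array against 6-week control gave the lowest of the 6 values. Paired spots differed by at most 0.36.

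Tsc22d3 and Btg1 were the 2 of these 4 genes that were positive on all 6 arrays, as 3.24% of named genes were. Another 3.62% of named genes were negative on all 6. Since the genes were chosen from these ratios, nothing is read from that count.

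**Figure D1:**
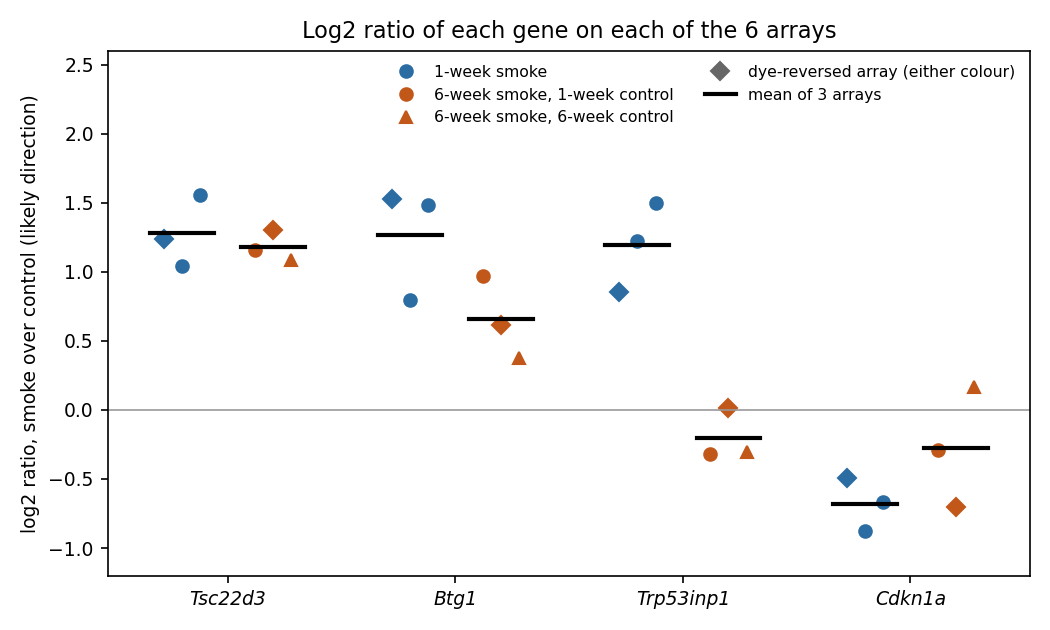
Log2 ratio of smoke over control (vertical axis) for each of the 4 genes, with 1 point per array, 1 week in blue and 6 weeks in orange, diamonds for dye-reversed arrays, a triangle for the array against 6-week control, and a black bar for the mean of 3 arrays. Points of Tsc22d3 lie between 1.04 and 1.56 at both times, whereas those of Trp53inp1 lie between 0.85 and 1.50 at 1 week and between -0.32 and 0.01 at 6 weeks.

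Trp53inp1 was high at 1 week and near control at 6 weeks. Its log2 ratio was 0.85, 1.22 and 1.50 on 1-week arrays 1, 2 and 3, and -0.32, 0.01 and -0.31 on 6-week arrays 1, 2 and 3. Every 1-week value was above every 6-week value, as for 5.88% of named genes. The mean was 1.19 ± 0.32 at 1 week (SD, n = 3 arrays), a 2.28-fold ratio, and -0.20 ± 0.19 at 6 weeks (SD, n = 3 arrays), a ratio 1.15-fold below control. The 6-week mean was lower by a log2 difference of -1.39. Averaging both dye orientations of the 6-week sample against 1-week control before array 3 gave -0.23 at 6 weeks. Paired spots differed by at most 0.19 on any array, the closest of the 4 genes.

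At 1 week Tsc22d3, Btg1 and Trp53inp1 were positive on all 3 arrays, as 15.4% of named genes were, and Cdkn1a was negative on all 3, as 15.6% were. At 6 weeks Tsc22d3 and Btg1 were positive on all 3 arrays, against 11.7% of named genes, and 13% were negative on all 3. The same arrays chose the genes, so these shares are the background only.

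Cdkn1a had 4 spots, and their mean was below control on 5 of 6 arrays. That mean was -0.49, -0.88 and -0.67 on 1-week arrays 1, 2 and 3, and -0.29, -0.70 and 0.16 on 6-week arrays 1, 2 and 3. The array against 6-week control was the one above 0, and the times overlapped. The mean over arrays was -0.68 ± 0.19 at 1 week (SD, n = 3 arrays), a ratio 1.60-fold below control, and -0.28 ± 0.43 at 6 weeks (SD, n = 3 arrays). Averaging the 6-week dye swap first gave -0.17 at 6 weeks. Without 6-week array 2 the 6-week mean was -0.06, and without array 3 it was -0.50.

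The spots of Cdkn1a carry 2 different GenBank sequences, AK007630 and U09507, with 2 spots each, and these did not give the same ratio. The AK007630 pair read -1.08, -1.67 and -1.15 on 1-week arrays 1, 2 and 3, and -0.75, -1.51 and -0.30 on 6-week arrays 1, 2 and 3. All 6 values were below control, the mean was -1.30 ± 0.32 at 1 week (SD, n = 3 arrays), a ratio 2.46-fold below control, and -0.85 ± 0.61 at 6 weeks (SD, n = 3 arrays). Its spots differed by at most 0.27. With the 6-week dye-reversed array turned, the 6-week mean of this pair changed sign, to 0.15.

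The U09507 pair read 0.09, -0.09 and -0.18 on 1-week arrays 1, 2 and 3, and 0.17, 0.10 and 0.62 on 6-week arrays 1, 2 and 3. At 6 weeks all 3 values were above 0, and at 1 week they lay on both sides of it. The mean was -0.06 ± 0.14 at 1 week (SD, n = 3 arrays) and 0.30 ± 0.28 at 6 weeks (SD, n = 3 arrays). Its spots differed by up to 0.77, with 1-week means of -0.33 and 0.21.

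**Figure D2:**
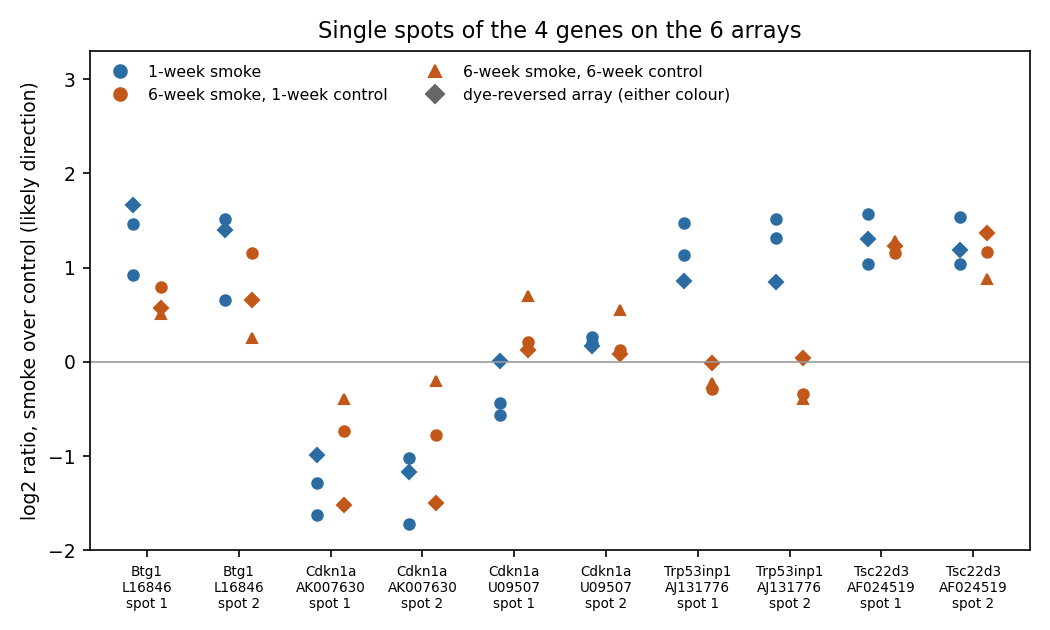
Log2 ratio of smoke over control (vertical axis) for each of the 10 spots of the 4 genes, grouped by gene and GenBank sequence, with 1 point per array, 1 week in blue and 6 weeks in orange, diamonds for dye-reversed arrays and triangles for the array against 6-week control. With the signs as deposited, both AK007630 spots of Cdkn1a are below 0 on all 6 arrays, while the U09507 spots lie around 0 at 1 week and above it at 6 weeks.

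The U09507 ratio exceeded the AK007630 ratio by 1.17, 1.59 and 0.97 on 1-week arrays 1, 2 and 3, and by 0.92, 1.61 and 0.92 on 6-week arrays 1, 2 and 3. The gap was 1.24 ± 0.31 at 1 week and 1.15 ± 0.40 at 6 weeks (SD, n = 3 arrays each), larger than its spread at both times. Of 865 genes carrying 2 sequences with 2 spots each, 15 genes or 1.73% had a gap at least as large at 1 week, and 21 genes or 2.43% at 6 weeks. The median size of that gap was 0.29 at 1 week and 0.25 at 6 weeks. Where on the transcript each sequence lies was not used here, and which of them reports p21 mRNA was not tested.

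Trp53inp1 and Cdkn1a are both p53 targets, and their ratios differed at 1 week whichever Cdkn1a sequence was read. Trp53inp1 exceeded the AK007630 ratio by 1.93, 2.89 and 2.65 on 1-week arrays 1, 2 and 3, a mean of 2.49 ± 0.50 (SD, n = 3 arrays). It exceeded the U09507 ratio by 0.76, 1.31 and 1.68, a mean of 1.25 ± 0.46 (SD, n = 3 arrays). With the signs as deposited, the gap was on the same side on all 3 arrays with both sequences. Array 1 is dye-reversed, and turning its sign would turn the gap there. At 6 weeks Trp53inp1 minus AK007630 was 0.44, 1.52 and -0.01 on arrays 1, 2 and 3, and Trp53inp1 minus U09507 was -0.49, -0.09 and -0.93. At 6 weeks, therefore, the 2 sequences gave gaps of opposite sign on arrays 1 and 2.

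Tsc22d3 and Trp53inp1 were alike at 1 week and apart at 6 weeks. Tsc22d3 minus Trp53inp1 was 0.39, -0.18 and 0.06 on 1-week arrays 1, 2 and 3, a mean of 0.09 ± 0.29 (SD, n = 3 arrays). On 6-week arrays 1, 2 and 3 it was 1.48, 1.29 and 1.39, a mean of 1.38 ± 0.10 (SD, n = 3 arrays). With the signs as deposited, the 1-week gaps lay on both sides of 0, and the 6-week gaps were all above 1. With 6-week array 2 turned, Tsc22d3 was at -1.30 and Trp53inp1 at -0.01 on that array, so the gap there changed side. The 6-week means were then 0.31 for Tsc22d3 and -0.21 for Trp53inp1.

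Btg1 lay between these genes at 6 weeks. Btg1 minus Trp53inp1 was 0.08 ± 0.56 at 1 week and 0.86 ± 0.37 at 6 weeks (SD, n = 3 arrays each). Tsc22d3 minus Btg1 was 0.01 ± 0.27 at 1 week and 0.53 ± 0.29 at 6 weeks (SD, n = 3 arrays each). At 1 week the order of Tsc22d3, Btg1 and Trp53inp1 was therefore not resolved beyond their spread.

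The arrays set limits on all these values. Paired spots of a gene correlated by 0.209 to 0.420 over the named genes of an array, and the SD of named genes was 0.455 to 0.611. Over named genes the pair of 6-week dye-swap arrays correlated by -0.0302, and the other 6-week pairs by 0.0742 and 0.0892. Pairs of 1-week arrays correlated by 0.0719, 0.103 and 0.148. The 2 dye-reversed arrays correlated by 0.272, the highest of any pair, although their exposure times differ. The part of a dye pattern in the members' ratios was not tested, and the 4 arrays without dye reversal gave 1.30 and 1.12 for Tsc22d3, 1.36 and -0.31 for Trp53inp1, and 1.14 and 0.67 for Btg1 at 1 and 6 weeks. If the sign of the 6-week dye-reversed array were turned, the 6-week mean would be 0.31 for Tsc22d3, 0.24 for Btg1, 0.19 for Cdkn1a and -0.21 for Trp53inp1.

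Across all features, moderated linear models of limma called 0 of 19242 tests, 0%, at a Benjamini-Hochberg adjusted p under 0.05 at 1 week, 0% at 6 weeks and 0% for the difference between times. The counts at an unadjusted p under 0.05 were 1280, 792 and 684. Without any difference a share of about 0.05 of tests would pass that threshold, so nothing is read from these counts. A robust variance model called 0 in each, and a model without variance moderation called 0, 5 and 5. Restricting the model to 5625 genes with agreeing spots, defined as less than 1 log2 unit apart on each array, called 102 genes at 1 week, 1.81%, and 12 genes at 6 weeks, 0.213%. It called 0 genes, 0%, for the difference, where 378 had an unadjusted p under 0.05. Tsc22d3, Btg1 and Trp53inp1 were among these 5625 genes and Cdkn1a was not, because its spots differed by up to 1.98.

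**Figure D3:**
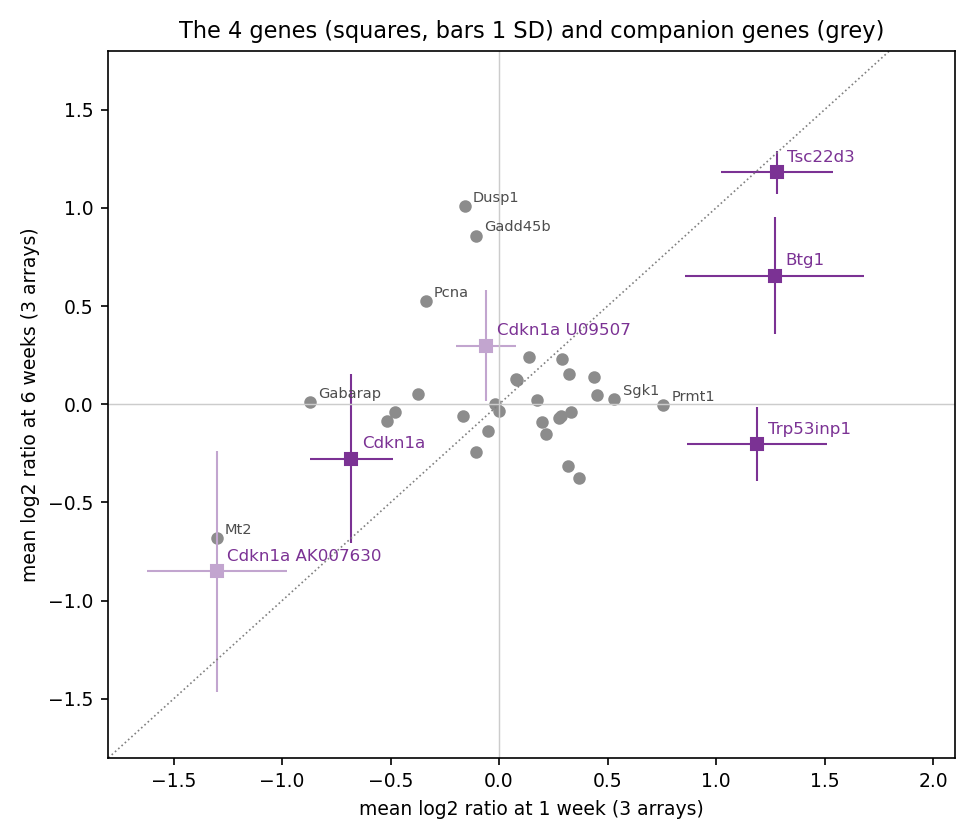
Mean log2 ratio at 6 weeks (vertical axis) against that at 1 week (horizontal axis) for the 30 measured companion genes (grey circles) and the 4 genes (purple squares, bars of 1 SD, n = 3 arrays), with the Cdkn1a sequences apart in a lighter shade and a dotted line where both means are equal. Tsc22d3 lies at 1.28 and 1.18, Trp53inp1 at 1.19 and -0.20, and Mt2 at -1.30 and -0.68.

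Other p53 targets lay on both sides of control. Of 31 measured p53 targets other than these genes, 17 had a positive and 14 a negative mean at 1 week, with a median of 0.01 against -0.01 for all named genes. On all 3 arrays 8 of the 31 were positive, 25.8% against 15.4% of named genes, and 1 was negative, 3.23% against 15.6%. At 6 weeks 17 were positive and 14 negative, with a median of 0.05, and of the 21 with agreeing spots 0 were called at either time. Ccng1, cyclin G1, had 0.64, 0.18 and 0.54 on 1-week arrays 1, 2 and 3, a mean of 0.45 ± 0.25, and 0.05 ± 0.19 at 6 weeks (SD, n = 3 arrays each). Its 1-week values were all positive but smaller than those of Trp53inp1. Mdm2, the ubiquitin ligase that degrades p53, was at -0.02 ± 0.17 at 1 week (SD, n = 3 arrays). Gadd45a, a DNA damage response gene, was at 0.20 at 1 week and -0.09 at 6 weeks, and Gadd45b was at -0.11 and 0.86, the latter from values of 1.04, 1.63 and -0.09. Trp53 itself, Sesn1 and Bax were not among the named genes.

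Other glucocorticoid-induced genes were mixed beside Tsc22d3. Of 31 measured genes of that list, 18 were positive and 13 negative at 1 week, with a median of 0.14, and 16 were positive and 15 negative at 6 weeks, with a median of 0.02. On all 3 arrays at 1 week 7 were positive, 22.6% against 15.4% of named genes, and 2 negative, 6.45% against 15.6%. At 6 weeks 5 were positive and 5 negative, 16.1% each against 11.7% and 13% of named genes. Of the 15 with agreeing spots, 1 was called, and it was negative. That gene was Mt2, a metallothionein that binds zinc and cadmium and is induced by metals and glucocorticoids. It fell, with -1.06, -1.19 and -1.65 on 1-week arrays 1, 2 and 3, and its limma adjusted p was 0.0133 among genes with agreeing spots and 0.419 over all features. Its mean was -1.30 ± 0.31 at 1 week and -0.68 ± 0.37 at 6 weeks (SD, n = 3 arrays each), so it lay on the other side of control from Tsc22d3 on all 6 arrays.

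Klf9, a glucocorticoid-induced transcription factor, was positive on all 6 arrays, at 0.29 ± 0.20 and 0.23 ± 0.22 for 1 and 6 weeks (SD, n = 3 arrays each), a smaller ratio than that of Tsc22d3. Sgk1, a glucocorticoid-induced kinase with spots up to 1.57 apart, was at 0.53 ± 0.28 at 1 week (SD, n = 3 arrays) and 0.03 at 6 weeks. Fkbp5, a co-chaperone that limits receptor activity, had spots up to 1.38 apart. It was at 0.28 ± 0.25 at 1 week (SD, n = 3 arrays) and -0.06 at 6 weeks. These ratios stayed below that of Tsc22d3 at both times. Per1 was at -0.05 and -0.13, and Dusp1, a phosphatase of MAP kinases, was at -0.16 ± 0.36 at 1 week and 1.01 ± 0.74 at 6 weeks (SD, n = 3 arrays each). The receptor gene Nr3c1 and Mt1 were not among the named genes.

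The relatives of Btg1 were nearer to control or below it. Btg2, a p53-inducible member of the family, was at -0.52 ± 0.54 at 1 week and -0.09 ± 0.41 at 6 weeks (SD, n = 3 arrays each), and Btg3 was at -0.11 and -0.24. Btg3 had spots up to 1.91 apart. Cnot7 and Cnot8, deadenylase subunits bound by BTG proteins, were at 0.44 and 0.37 at 1 week, with spots up to 2.83 and 2.23 apart, and Cnot7 was at -0.02 without 1-week array 2. Tob1 had spots up to 9.59 apart and Prmt1, a methyltransferase that binds BTG proteins, up to 5.40 apart, and their ratios are not given. Of the 27 measured antiproliferative genes and CDK inhibitors other than the 4 genes, 11 were positive and 16 negative at 1 week. On all 3 arrays 1 was positive, 3.7% against 15.4% of named genes, and 3 were negative, 11.1% against 15.6%. Cdkn1b, which encodes p27, was at 0.00 and -0.03, and Cdkn1c, which encodes p57, was at -0.48 ± 0.28 at 1 week (SD, n = 3 arrays) and -0.04 at 6 weeks. Of 15 members of that list with agreeing spots, 0 were called at either time.

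Within the TSC22 family, Tsc22d1 was at 0.14 ± 0.19 at 1 week and 0.24 ± 0.28 at 6 weeks (SD, n = 3 arrays each), and Tsc22d4 was at 0.28 and -0.07, with spots up to 3.88 apart. Tsc22d2 was at 0.08 at 1 week and ranged from -1.94 to 1.63 at 6 weeks, with spots up to 1.30 apart. With the signs as deposited, Tsc22d3 was the one measured family member above 1 on all 6 arrays. With 6-week array 2 turned, its value there was -1.30. Tsc22d3 was chosen on these ratios, so nothing is read from its standing in the family. Of the 12 measured family members and GILZ partners besides it, 8 were positive and 4 negative at 1 week, and 6 and 6 at 6 weeks. Of 7 with agreeing spots 0 were called.

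Genes of FoxO-driven quiescence and of autophagy lay on both sides of control, and 4 of them were called at 1 week among genes with agreeing spots, of which 1.81% were called in all. In the FoxO and quiescence list, 13 of 20 measured genes were positive at 1 week with a median of 0.16, and 10 of 20 at 6 weeks. Of 11 with agreeing spots 1 rose at 1 week, Klf4 at 0.83 with a limma adjusted p of 0.0302, and 1 fell, Klf2 at -1.34 with an adjusted p of 0.00921. Both are Kruppel-like factors of endothelium, and Klf2 is known for its induction by laminar flow. In the autophagy list, 8 of 15 measured genes were positive at 1 week with a median of 0.02, and of 10 with agreeing spots 1 rose, the cargo receptor Nbr1 at 1.17 with an adjusted p of 0.0193. The other called gene was Gabarap, an ATG8 protein, which fell to -0.87 ± 0.26 (SD, n = 3 arrays) with an adjusted p of 0.0437. Map1lc3b, another ATG8 protein, was at 0.33 ± 0.06 at 1 week (SD, n = 3 arrays) and -0.04 at 6 weeks. Klf4, Klf2 and Nbr1 are singled out because they passed, a choice made with their values in view. No label says whether the 1-week dye reversal repeats the RNA of another array. Averaged with array 2 or array 3, it left Mt2 and Klf2 called in limma, Mt2 at an adjusted p of 0.0404 and 0.0333, and ended the call of Klf4, at 0.104 and 0.093, of Nbr1, at 0.0644 and 0.0652, and of Gabarap, at 0.104 and 0.105. Turning the 6-week dye-reversed array also ended the 1-week call of Klf4, at 0.121.

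Genes that drive the cell cycle, whose products p21 and BTG proteins restrain, lay on both sides of control. Of 34 measured cyclin, CDK and replication genes, 14 were positive and 20 negative at 1 week, with a median of -0.06. On all 3 arrays 5 were positive and 5 negative, 14.7% each, near the 15.4% and 15.6% of named genes. At 6 weeks 19 were positive and 15 negative, with a median of 0.03. On all 3 arrays 0 were of 1 sign, against 11.7% of named genes positive and 13% negative. Of 23 with agreeing spots 0 were called. Ccnd1, cyclin D1, was at 0.32 ± 0.78 at 1 week (SD, n = 3 arrays) with spots up to 3.11 apart, Cdk4 was at 0.22 and -0.15, and Pcna, the sliding clamp of replication, was at -0.34 and 0.53.

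Marker genes of the sorted cells and of other cells gave the following ratios beside the 4 genes. Of 17 measured endothelial markers 7 were positive and 10 negative at 1 week, with a median of -0.06, and 5 and 12 at 6 weeks, with a median of -0.28. Negative on all 3 arrays were 7 of the 17 at 1 week, 41.2% against 15.6% of named genes, and 6 of 17 at 6 weeks, 35.3% against 13%. With the 6-week dye-reversed array turned, the 6-week median of these markers was 0.11. Of 21 leukocyte markers 8 were positive at 1 week and 9 at 6 weeks, with medians of -0.10 and -0.02. The 10 fibroblast markers had medians of 0.08 and -0.04, the 8 mural cell markers -0.05 and 0.28, the 8 adipocyte markers 0.02 and -0.10, the 10 epithelial markers -0.12 and -0.01, and the 4 erythroid markers -0.06 and -0.36, with 3 of the 4 negative on all 3 arrays at 6 weeks and a 6-week median of 0.14 with the dye-reversed array turned. Genes induced by tissue dissociation, 17 of them measured, had a median of -0.17 at 1 week and 0.27 at 6 weeks. On all 3 arrays 6 of the 17 were negative at 1 week, 35.3% against 15.6% of named genes, and at 6 weeks 7 were positive, 41.2% against 11.7%, and 0 negative. That list holds Dusp1. Among fibroblast markers with agreeing spots, Dpt fell at 1 week to -1.33 with a limma adjusted p of 0.0193, and Aspn rose at 6 weeks to 1.72, the dye swap averaged first, with 0.0255; the first was lost at 0.0564 and 0.0623 with the 1-week dye reversal averaged with array 2 or 3, and the second at 0.995 with the 6-week dye-reversed array turned. Both were picked with their values in view. The part of other cells or of dissociation in these results was not tested.

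**Figure D4:**
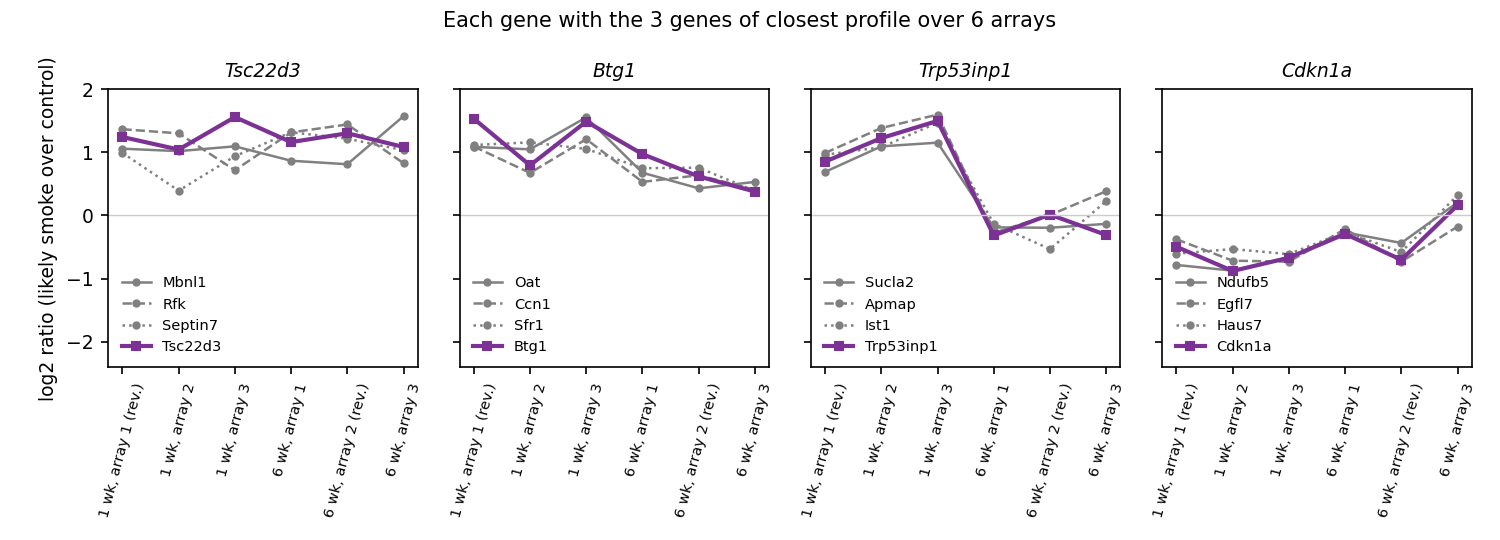
Log2 ratio of smoke over control (vertical axis) on each of the 6 arrays (horizontal axis, rev. for dye-reversed) for each of the 4 genes (purple) and the 3 named genes with the most similar values (grey). Lines join arrays to guide the eye and imply no order; Sucla2 follows Trp53inp1 within a root mean square difference of 0.21.

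The genes most like each member were taken by the smallest root mean square difference over the 6 arrays among genes with agreeing spots. For Tsc22d3 they were Mbnl1, a splicing regulator, at 0.37, Rfk, riboflavin kinase, at 0.39, and Septin7, a cytoskeletal GTPase, at 0.39, and Btg1 ranked 8 of 5624 at 0.44. For Btg1 they were Oat, ornithine aminotransferase, at 0.26, Ccn1, a matricellular protein, at 0.28, and the recombination repair protein Sfr1 at 0.31, and Tsc22d3 ranked 11. For Trp53inp1 they were Sucla2, a subunit of mitochondrial succinyl-CoA ligase, at 0.21, Apmap at 0.30 and Ist1, an ESCRT-III factor, at 0.33. Btg1 ranked 540 for Trp53inp1. The members were chosen on these same ratios, so nothing is read from their ranks beside each other. For the mean of the Cdkn1a spots they were Ndufb5, a complex I subunit, at 0.16, Egfl7, a secreted endothelial protein, at 0.17, and Haus7 at 0.17. For its AK007630 spots alone they were Uqcc2 at 0.25, Ifi27l2a at 0.32 and Mt2 at 0.34, and for its U09507 spots Ak3 at 0.08, Abhd12 at 0.08 and Gkn1 at 0.10. The 2 sequences of Cdkn1a shared none of their 3 closest genes. That follows from the gap between their ratios, 0.92 to 1.61 on every array, and is no separate result.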

How the data were processed

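Total RNA of sorted mouse endothelial cells was measured on 6 arrays of 2 channels, and the authors deposited a log2 ratio per feature and array, 32448 features in all, per the file headers. Scanner, background correction, normalization, filter and dyes are not given in the sources used here. Nearly all values were log2 of folds rounded to hundredths (tolerance 0.02 of a hundredth), and the median of each array was 3e-07, so the columns had been centred. Dim spots could not be judged without intensities.

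A table of the platform's annotation gave 24344 features 1 symbol, 98 several and 8006 none. Symbols were checked by Entrez identifier against RefSeq of GRCm38.p6: 24076 features matched, 268 kept their symbol and 0 changed. Spots sharing a symbol were averaged on each array, which left 11138 named genes, 10180 with 2 spots and 958 with more. The 8104 features without a single symbol were tested unnamed. No values were missing, and promoter coordinates are those of RefSeq's GRCm38.p6 table.

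All arrays kept their deposited sign. Turning an array by the sign of its correlation was not used, because for the 6-week dye swap that correlation was -0.0302 over named genes and 0.0454 over genes with agreeing spots. Each array was centred on its median. Member values are means with SD over 3 arrays, without a test. For the background, limma 3.58.1 (lmFit, then eBayes; R 4.3.3) fitted a coefficient per exposure time over 5 replicates, the 6-week dye swap averaged as 1. The 19242 p-values per contrast were two-sided, adjusted by Benjamini-Hochberg and called under 0.05, with 3 residual and 2.391 prior degrees of freedom. The code was tested on simulated data. Means, lists and promoter scans used Python 3.11.15, pandas 2.3.3 and numpy 2.4.6.

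The 4 genes and all lists were chosen with earlier results of these data known. Named genes are the 4 genes, 36 companion genes of which 30 were measured, list genes that passed, and the 3 genes closest to each member. Alternatives changed the sign of the dye-reversed arrays, centring, scaling, averaging of dye swaps, control age, spot summary, variance model and each array in turn.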

Additional observations from a re-analysis of the deposited data

Results flagged for a closer look

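Of 56 genes looked at, 2 had all 1-week arrays on one side of control and all 6-week arrays on the other, as 307 of 11138 named genes or 2.76% did. Klf2 had a 6-week minus 1-week difference of 1.67, from -1.34 (range -1.64 to -1.11) at 1 week to 0.33 (range 0.01 to 0.57) at 6 weeks. The difference did not pass in limma, with an adjusted p of 0.951 over all tests and 0.134 among genes with agreeing spots. Sucla2, the gene closest to Trp53inp1, had a difference of -1.15, from 0.98 (range 0.69 to 1.15) to -0.17 (range -0.19 to -0.13). Its limma adjusted p for the difference was 0.951 over all tests and 0.322 among genes with agreeing spots. Sucla2 was named for its likeness to Trp53inp1, whose 1-week and 6-week values do not overlap, so its pattern is no separate finding.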

How the results depend on the processing

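Means of the 4 genes and of the 2 Cdkn1a sequences were recomputed 138 times. Of these, 122 stayed within 1 SD of the value given, 11 moved further and 5 moved further with a change of sign. Many of these outcomes were fixed in advance. Leaving out 1 of 3 arrays, or averaging a dye pair first, cannot move a mean by 1 SD. Omitting the centring, or turning a 6-week array for a 1-week mean, left the value as it was. The count of 122 is therefore no measure of stability. Within 1 SD, the 1-week mean of the U09507 spots of Cdkn1a, near 0, also changed sign without array 3. With the 6-week dye-reversed array turned, alone or with the 1-week one, the 6-week mean was 0.31 for Tsc22d3, 0.24 for Btg1, 0.19 for Cdkn1a and 0.15 for its AK007630 spots, the last 2 changing sign. With both dye-reversed arrays turned, the 1-week mean was 0.45 for Tsc22d3, 0.62 for Trp53inp1, 0.25 for Btg1, -0.35 for Cdkn1a and -0.58 for its AK007630 spots. By construction, turning an array reverses its contribution. Quantile normalization gave 1.31 for Tsc22d3 at 6 weeks. The array against 6-week control alone gave 0.16 for Cdkn1a, which changed sign, and 0.62 for its U09507 spots, and the cause was not tested. Leaving out each array in turn gave 1.14 to 1.40 for Tsc22d3, 1.04 to 1.36 for Trp53inp1 and 1.14 to 1.51 for Btg1 at 1 week, and -0.50 to -0.06 for Cdkn1a at 6 weeks.

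Genes called by limma at 1 week numbered 102 among genes with agreeing spots. After the data were seen, 3 alternatives of that set were added: averaging the 1-week dye reversal with array 2 gave 29, with array 3 gave 30, and turning the 6-week dye reversal gave 78. At 6 weeks the agreeing set called 12 genes, 14 and 18 with those averages, and 0 with the 6-week dye reversal turned, while a fit without variance moderation called 5 of all tests. For the difference between times the turned array gave 1 called gene and the fit without moderation 5. The cause was not tested. Across companion genes 663 of 690 recomputed means stayed within 1 SD, and 27 moved. Many of these were likewise fixed in advance, so that count is no measure of stability either. Of 330 recomputed list medians 285 stayed and 45 moved. No paired analysis was possible because no label ties a 1-week array to a 6-week array, and replicate numbers only name arrays in accession order. Paired spots that correlate weakly and the number of arrays limit what can be resolved.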
